A study of Rattus norvegicus with 9 samples.

Results

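Chaperones are proteins that help other proteins to fold, to refold after damage or to be handed on for degradation, and the genes described here are the heat shock protein and DnaJ genes of the rat dorsal hippocampus. Hsp70 proteins bind and release unfolded stretches of their clients in a cycle driven by ATP. DnaJ proteins, also called Hsp40, bring clients to Hsp70 and start the cycle, and Hsp110 proteins end it by exchanging the nucleotide. Hsp90 acts later on clients such as steroid receptors and kinases, small heat shock proteins hold unfolded proteins in solution, and Hspd1 with Hspe1 forms the folding chamber of mitochondria. Many of these genes are switched on together by the heat shock factor Hsf1 when proteins unfold, and others serve in unstressed neurons, where they act in protein turnover and in the recycling of synaptic vesicles.

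The members were all probe sets whose only gene symbol starts with Hspa, Hspb, Hspd, Hspe, Hsph, Hsp90, Dnaja, Dnajb or Dnajc, or is Hsf1 or Hsf2, with the brightest probe set kept for each gene. The rule itself uses only gene symbols and the mean over all 9 arrays, but it was set with earlier results of these data known. It gave 68 genes from 74 probe sets, out of 18166 genes with a symbol of their own. The genes are 8 Hsp70 genes, 3 of the Hsp110 type (Hsph1, Hspa4 and Hspa4l), 2 Hsp90 genes, 7 small heat shock proteins, the 2 mitochondrial chaperonin genes, 4 DnaJ genes of type A, 12 of type B and 25 of type C, and the factors Hsf1 and Hsf2. The name prefix also took in Hspbp1 and Hspbap1, which are not small heat shock proteins, and a pseudogene, Hsp90aa1-ps2. For 5 further probe sets of these families several symbols are given, so that Hspa1a, Hspa1b and Hsp90aa1, the most strongly heat-induced cytosolic genes, were not analysed here. A group mean over 6.6 on the log2 scale in at least 1 group, the study's lower limit of expression, was reached by 49 of the 68 genes, and a mean over 6.6 across all 9 arrays, the level used below, by 48.

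RNA came from male Sprague-Dawley rats aged 8 weeks, 1 array per rat and 3 rats per group. Control rats had no prenatal valproic acid (VPA) and received vehicle, vehicle-treated VPA rats were exposed to VPA before birth and received vehicle, and oxytocin (OXT)-treated VPA rats had the same exposure and received OXT through the nose. There was no control group with OXT, so that an effect of OXT without VPA could not be measured. The 3 control rats were pups of 2 dams and the 6 VPA rats were pups of 3 dams. Which array came from which litter is not given, so that the p values treat littermates as independent. In bulk tissue, fewer cells of a type and less RNA per cell cannot be told apart.

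The arrays were alike in overall level, with a median log2 between 5.75 and 5.82. They were not alike in the level of markers of several tissues and cell types. Mean log2 of 19 choroid plexus markers was 7.20 to 7.93 in control rats, 5.73 to 6.21 in vehicle-treated VPA rats, and 8.21, 7.35 and 6.05 in OXT-treated VPA rats. Mean log2 of 10 thalamus markers was 6.70 to 7.10 in control rats, while it was 8.05 to 8.43 in replicates 1 and 2 of the vehicle-treated VPA group and 8.43 to 8.61 in replicates 1 and 2 of the OXT-treated VPA group, and 6.92 and 7.03 in their replicates 3. Replicate 3 of both VPA groups had the lowest level of 6 oligodendrocyte markers in its group, at 9.44 and 9.61 against 10.42 to 10.91 in control rats. Mean log2 of the 9 measured markers of hippocampal principal cells was 8.83 to 9.09 in control rats, 8.41 to 8.88 with vehicle and 8.59 to 8.80 with OXT. At an unadjusted p under 0.05, 3 of the 9 were lower than in control with vehicle and 4 with OXT. Of all probe sets, 3.98% and 3.51% were. The other markers did not pass, and 2 of the 9 had a higher mean than in control with vehicle and 1 with OXT. Mean log2 of 6 endothelial markers was 7.32 to 7.34 in control rats, 7.45 to 7.62 with vehicle and 7.56 to 7.66 with OXT, higher in all 6 VPA rats than in any control rat. Of these marker levels, only that of choroid plexus was entered into the fit, as a covariate. This level did not overlap between control and vehicle-treated VPA rats. A call lost with the covariate therefore cannot tell choroid plexus and VPA exposure apart. Whether the arrays held different amounts of these tissues, and the part of this in the values below, was not tested.

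Most chaperone genes differed little between any rats. Over the 9 arrays the highest and lowest values of a chaperone gene lay 0.38 apart on the log2 scale at the median, and were within 1.5-fold for 55 of the 68 genes (80.9%), against 66.0% of all genes with a symbol of their own. Among genes with a mean over 6.6 these shares were 87.5% and 78.8%. The steadiest was Hspa8, the constitutive Hsp70 of the cytosol, which spanned 0.10 on the log2 scale, with values of 12.87, 12.88 and 12.87 in control rats, 12.82, 12.87 and 12.92 in vehicle-treated VPA rats, and 12.85, 12.92 and 12.86 in OXT-treated VPA rats. Dnajc6 (auxilin, which works with Hspa8 to strip clathrin from vesicles), spanned 0.12, Hspa4 0.13, and Dnajc5 (the cysteine string protein of synaptic vesicles) 0.14. At the other end, Dnajc17 spanned 1.10, Hspb8 1.04 and Hspb2 0.99, and these showed no pattern by group that passed the test.

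The first question was whether prenatal VPA exposure changed the level of chaperone mRNA. In vehicle-treated VPA rats against control, 8 of 68 chaperone genes (11.8%) had an unadjusted p under 0.05 for this pair of groups, against 8.98% of all 30429 probe sets. A call below means an unadjusted p under 0.05 in the comparison named. The study asked for more, namely a p under 0.05 in an analysis of variance over the 3 groups, more than 1.5-fold between vehicle-treated VPA rats and control, and a level over 6.6 in at least 1 group. No chaperone gene met these criteria together, which 0.654% of all probe sets did. Of the 8 chaperone genes with a call, 1 was higher (1.47% of the 68, against 5% of all probe sets) and 7 were lower (10.3%, against 3.98%). The higher gene was Hspa4l and the lower genes were Dnaja4, Dnajb2, Dnajb5, Dnajb12, Dnajb13, Dnajc4 and Dnajc14, all of the DnaJ type. DnaJ genes make up 41 of the 68 members, and 31 of the 41 have a mean over 6.6, as do 17 of the 27 other members. The lower genes are 17.1% of the DnaJ genes, against 3.98% of all probe sets, and none is among the other members. This restates the names above and is not a separate test. Without control replicate 1 only 1 lower call was left. All 8 have a mean over 6.6, so that 16.7% of the 48 members over that level had a call, against 12.2% of all such probe sets, and 14.6% were lower, against 6.83%. Lower calls also outnumbered higher ones among all 18166 genes with a symbol of their own, with 931 lower and 670 higher. Among the 8340 of these with a mean over 6.6, 651 were lower and 290 higher. The other 60 chaperone genes did not pass. No chaperone gene and no probe set of the array had an adjusted p under 0.05 (limma, Benjamini-Hochberg adjustment over all probe sets), and the smallest adjusted p of a chaperone gene was 0.342. None of the 8 genes reached a 1.5-fold difference at an unadjusted p under 0.05, which 1.71% of all probe sets did. The median difference over the 68 genes was -0.01 on the log2 scale, as it was over all genes with a symbol of their own.

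**Figure D1:**
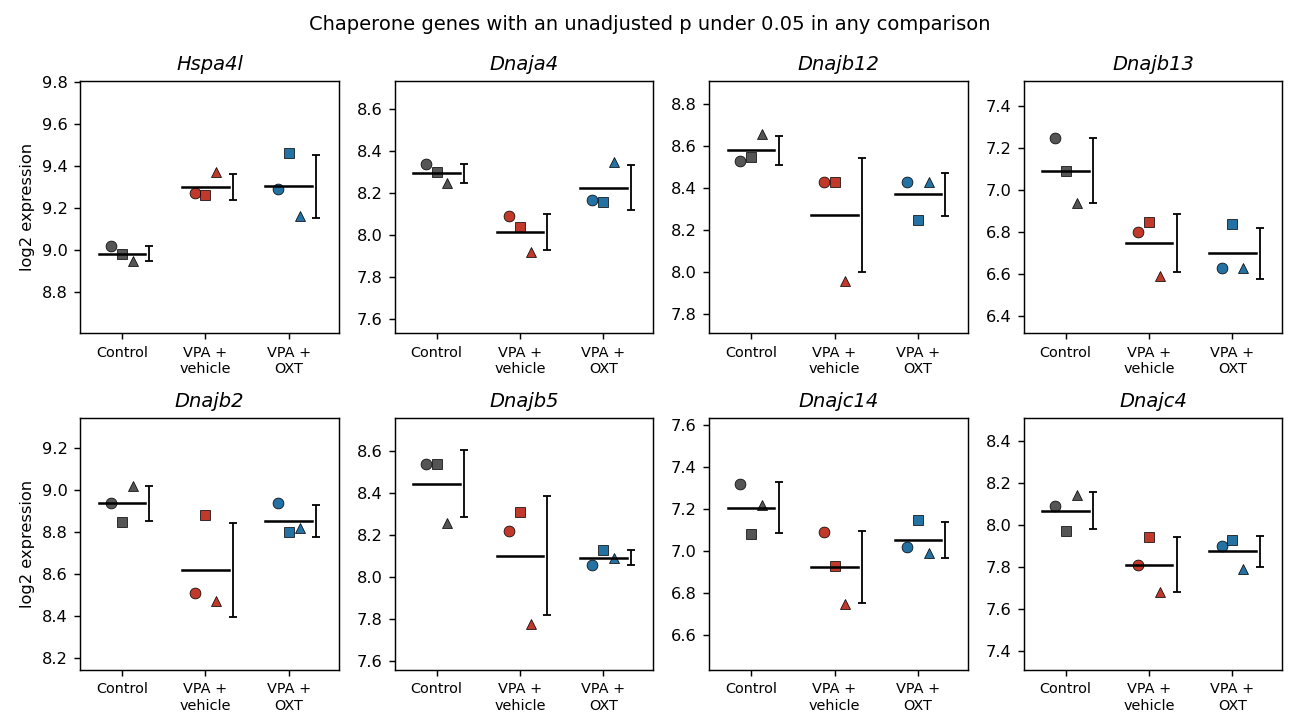
Deposited log2 expression (y axis) of the 8 chaperone genes with an unadjusted p under 0.05 in any comparison, by group (x axis). Each point is 1 rat (circle, square and triangle for replicates 1, 2 and 3), the horizontal bar is the mean and the vertical bar is 1 SD (n = 3), and all panels span the same log2 height; Hspa4l is higher in all 6 VPA rats than in the 3 control rats and the 7 DnaJ genes have lower means in vehicle-treated VPA rats than in control.

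Hspa4l was higher in both VPA groups. It encodes an Hsp110-type nucleotide exchange factor that is induced by heat and by osmotic stress, and its loss in mice is known for effects on sperm and kidney. Its log2 values were 9.02, 8.98 and 8.95 in control rats, 9.27, 9.26 and 9.37 in vehicle-treated VPA rats, and 9.29, 9.46 and 9.16 in OXT-treated VPA rats. All 6 VPA rats lay above all 3 control rats. The log2 difference was 0.32 (SE 0.09, n = 3 per group) with vehicle and 0.32 (SE 0.09) with OXT, and between both VPA groups and control it was 0.32 (SE 0.08, limma adjusted p = 0.216). These comparisons share the same control rats. Between the VPA groups the difference was 0.00, with a 95% interval from -0.20 to 0.21. The call held in every alternative run, with values from 0.28 to 0.41 for vehicle-treated VPA rats against control. The other Hsp110 genes did not pass in any comparison. Hsph1 lay between 10.15 and 10.35 on all arrays, and Hspa4 between 9.63 and 9.76.

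Dnaja4 was lower after VPA with vehicle and was the only chaperone gene that differed between the VPA groups. It is a DnaJ protein of type A, the type closest to the bacterial DnaJ. Its log2 values were 8.34, 8.30 and 8.25 in control rats, 8.09, 8.04 and 7.92 in vehicle-treated VPA rats, and 8.17, 8.16 and 8.35 in OXT-treated VPA rats. The vehicle-treated VPA rats lay below all other rats. The log2 difference from control was -0.28 (SE 0.09, n = 3 per group, limma adjusted p = 0.374), and this call held in all 20 alternatives. With OXT it was 0.21 higher than with vehicle (SE 0.09, limma adjusted p = 1). That call was lost in 10 of 20 alternatives, among them leaving out replicate 3 of the vehicle-treated VPA group (0.16), replicate 3 of the OXT-treated VPA group (0.15), replicate 2 of the vehicle-treated VPA group (0.22), and control replicate 1 or 2 (0.21 each). OXT-treated VPA rats differed from control by -0.07, with a 95% interval from -0.27 to 0.13. The difference of both VPA groups from control, -0.17, was a call that was lost without any single control rat (-0.15, -0.17 and -0.20), without replicate 2 (-0.18) or 3 (-0.15) of the vehicle-treated VPA group, or without replicate 1 or 2 of the OXT-treated VPA group (-0.16 each).

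Dnajb13 was lower in both VPA groups. It is a DnaJ protein of motile cilia and sperm tails, where it sits in the radial spokes of the axoneme, and in the brain motile cilia are borne by ependymal cells and not by neurons. Its log2 values were 7.25, 7.09 and 6.94 in control rats, 6.80, 6.85 and 6.59 in vehicle-treated VPA rats, and 6.63, 6.84 and 6.63 in OXT-treated VPA rats. All 6 VPA rats lay below all 3 control rats. The log2 difference from control was -0.35 (SE 0.11) with vehicle, -0.39 (SE 0.11) with OXT, and -0.37 (SE 0.10) for both VPA groups (limma adjusted p = 0.254). The first was lost with the choroid plexus level as a covariate (-0.23), without control replicate 1 (-0.27) and without replicate 3 of both VPA groups (-0.27). Ependymal cilia markers moved in the same direction by group. Of the 9 measured markers, of which 1 had a mean over 6.6, 6 were lower with vehicle and 4 with OXT, against 3.98% and 3.51% of all probe sets. Their mean log2 level was 6.12 to 6.51 in control rats, 5.49 to 5.90 with vehicle and 5.50 to 6.14 with OXT. Among them Stoml3 fell by 1.39 on the log2 scale and Dnah5, a dynein heavy chain of cilia, fell by 0.54 in both VPA groups against control. Within the groups, the rats fell in the same order for Dnajb13 and for the mean of the cilia markers only with vehicle. Control replicate 3 had the highest marker mean (6.51) and the lowest Dnajb13 (6.94) of its group. With OXT, replicate 1 had the highest marker mean (6.14) and a Dnajb13 value of 6.63. The part of ciliated cells in the Dnajb13 difference was not tested.

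Dnajb5 (Hsc40), a DnaJ protein of type B, had log2 values of 8.54, 8.54 and 8.26 in control rats, 8.22, 8.31 and 7.78 in vehicle-treated VPA rats, and 8.06, 8.13 and 8.09 in OXT-treated VPA rats. The OXT-treated VPA rats lay below all control rats, while the vehicle-treated VPA rats overlapped with them. The log2 difference from control was -0.34 (SE 0.14) with vehicle, -0.35 (SE 0.14) with OXT and -0.35 (SE 0.12, limma adjusted p = 0.422) for both VPA groups. Without replicate 3 of the vehicle-treated VPA group, its lowest value, the difference with vehicle was -0.18 and did not pass, nor did it with the choroid plexus level as a covariate (-0.23), which also ended the calls with OXT (-0.33) and for both VPA groups (-0.28). It also missed the threshold without control replicate 1 or 2 (-0.30 each) and without any single OXT-treated rat (-0.34 each). With OXT the call was lost without control replicate 1 or 2 (-0.31 each) or without any single OXT-treated rat (-0.34, -0.37 and -0.35). For both VPA groups it was lost without control replicate 1 or 2 (-0.30 each).

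Dnajb2 (HSJ1), a chaperone of neurons that passes ubiquitinated clients to the proteasome and whose human gene is mutated in a hereditary motor neuropathy, had log2 values of 8.94, 8.85 and 9.02 in control rats, 8.51, 8.88 and 8.47 in vehicle-treated VPA rats, and 8.94, 8.80 and 8.82 in OXT-treated VPA rats. Replicates 1 and 3 of the vehicle-treated VPA group lay below all other rats, while replicate 2 lay among the control rats. The log2 difference with vehicle was -0.32 (SE 0.12, limma adjusted p = 0.475), and the difference between OXT and vehicle, 0.23 (95% interval from -0.04 to 0.50), did not pass. The call was lost without replicate 1 (-0.26) or 3 (-0.24) of the vehicle-treated VPA group without control replicate 1 (-0.32) or 3 (-0.28), and with the choroid plexus level as a covariate (-0.21).

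Of the remaining genes, Dnajc14 and Dnajb12 are proteins of the endoplasmic reticulum (ER) membrane, which act in the export of receptors and in the removal of misfolded membrane proteins, respectively. Dnajc4 had log2 values of 8.09, 7.97 and 8.14 in control rats, 7.81, 7.94 and 7.68 in vehicle-treated VPA rats, and 7.90, 7.93 and 7.79 in OXT-treated VPA rats. All 6 VPA rats lay below the control rats, by -0.26 (SE 0.09, limma adjusted p = 0.467) with vehicle and -0.23 (SE 0.08) for both VPA groups. The call with vehicle was lost without control replicate 1 (-0.24) or 3 (-0.22) or vehicle-treated VPA replicate 3 (-0.19), and that for both VPA groups without control replicate 1 (-0.21) or 3 (-0.19). With the choroid plexus level as a covariate both calls were lost (-0.15 and -0.16).

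Dnajc14 had log2 values of 7.32, 7.08 and 7.22 in control rats, 7.09, 6.93 and 6.75 in vehicle-treated VPA rats, and 7.02, 7.15 and 6.99 in OXT-treated VPA rats, with overlap between the groups. The log2 difference was -0.28 (SE 0.11, limma adjusted p = 0.494) with vehicle and -0.22 (SE 0.09) for both VPA groups. The first was lost without control replicate 1 (-0.23) or 3 (-0.28) or vehicle-treated VPA replicate 2 (-0.29) or 3 (-0.20). The second was lost without control replicate 1 (-0.16) or 3 (-0.21), vehicle-treated VPA replicate 2 (-0.22) or 3 (-0.17), or OXT-treated VPA replicate 1 (-0.21) or 3 (-0.20). With the choroid plexus level as a covariate both were lost (-0.20 and -0.17).

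Dnajb12 had log2 values of 8.53, 8.55 and 8.66 in control rats, 8.43, 8.43 and 7.96 in vehicle-treated VPA rats, and 8.43, 8.25 and 8.43 in OXT-treated VPA rats. Its difference with vehicle, -0.31 (SE 0.13, limma adjusted p = 0.55), rested on replicate 3 of that group, without which it was -0.15. The call was lost in 15 of 21 alternatives, among them leaving out any single control rat (-0.33, -0.32 and -0.27) or OXT-treated rat (-0.31 each) and the choroid plexus level as a covariate (-0.28). A second probe set of the gene gave -0.21 (SE 0.10) with vehicle and no call. For both VPA groups against control it gave -0.20 (SE 0.09, limma adjusted p = 0.536), an unadjusted call, while the first gave -0.26 (SE 0.12) and no call. With either probe set all VPA rats lay below all control rats.

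Replicate 3 of the vehicle-treated VPA group, the rat with the lowest oligodendrocyte markers, was the lowest of its group for 26 of the 48 chaperone genes with a mean over 6.6, and for 44.7% of all such genes. Without it 5 members passed in place of 8 (7.35%, against 7.90% of all probe sets), 2 higher and 3 lower. Without control replicate 1 it was 2, Hspa4l and Dnaja4 (2.94%, against 7.13%), and without control replicate 3 it was 8 (11.8%, against 7.38%), of which 4 were higher and 4 lower. With the choroid plexus level as a covariate 5 passed (7.35%, against 8.97%), 3 higher and 2 lower, and of the 7 lower DnaJ genes only Dnaja4 kept its call, so that the excess of lower over higher calls depended on these choices.

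**Figure D2:**
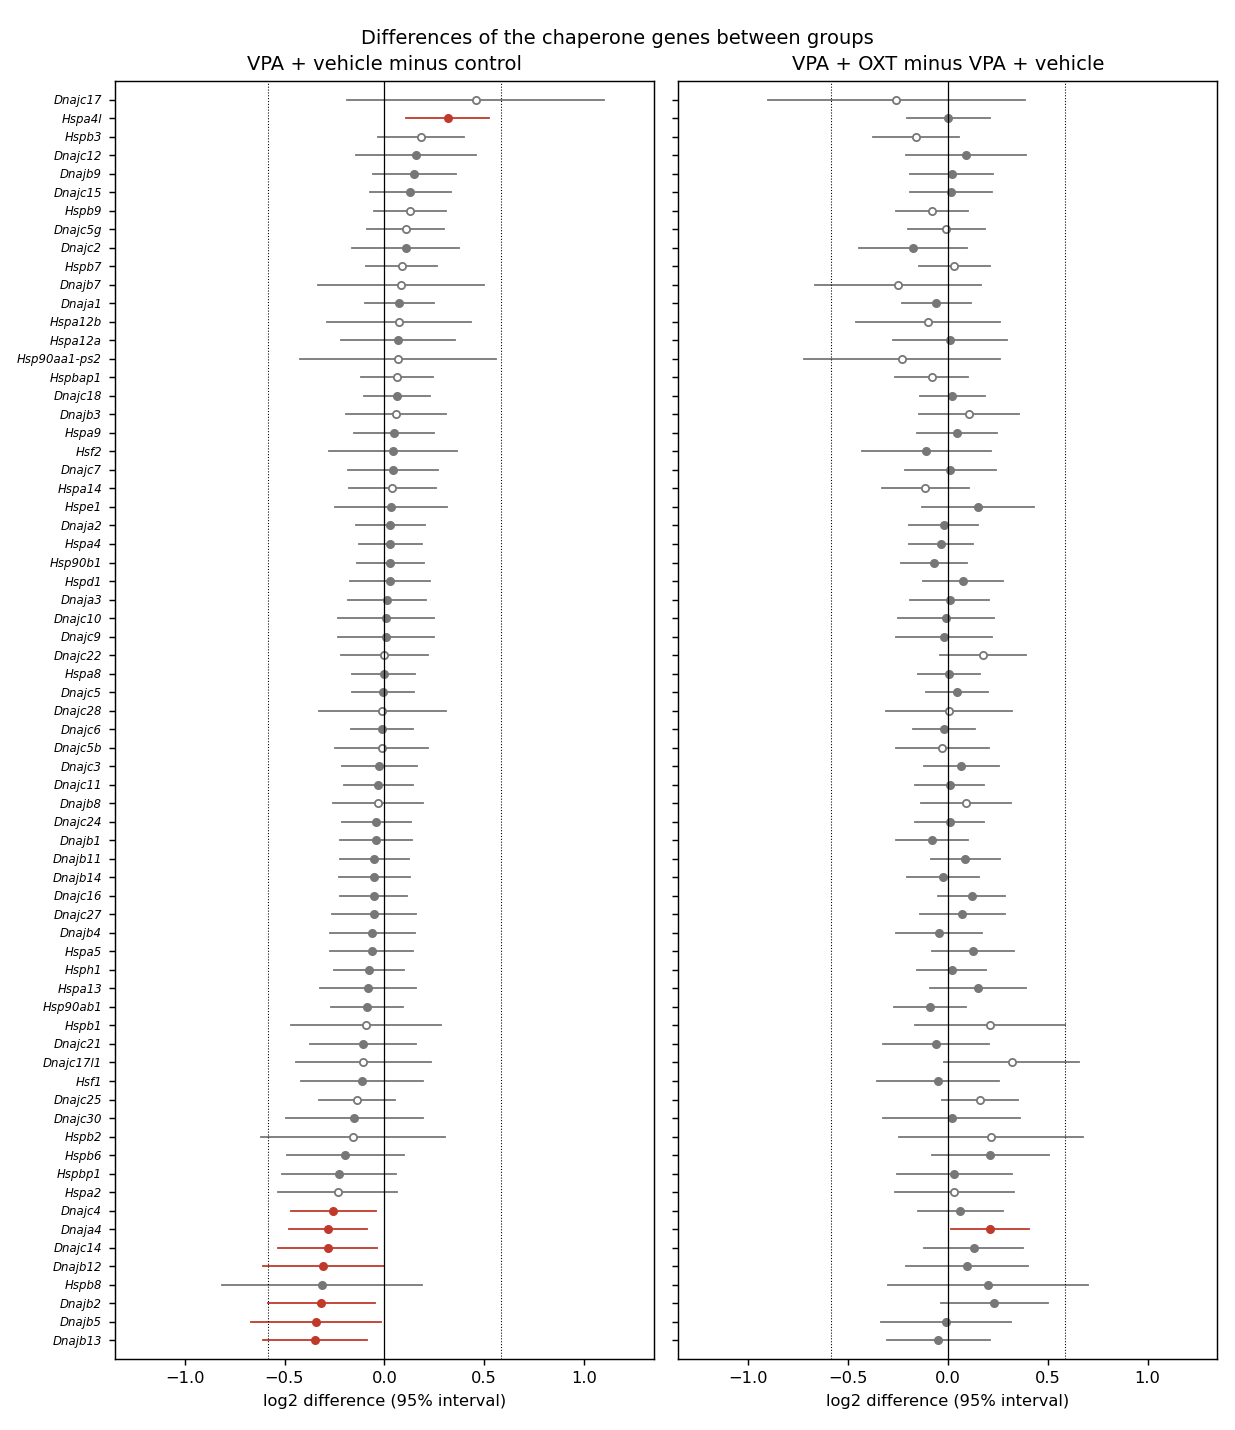
Log2 difference with its 95% interval (x axis) for each of the 68 chaperone genes (y axis, ordered by the difference in the left panel), for vehicle-treated VPA rats minus control (left) and OXT-treated minus vehicle-treated VPA rats (right), n = 3 per group. Red marks an unadjusted p under 0.05 (8 genes left, 1 right), open points a mean log2 at or under 6.6, and dotted lines 1.5-fold; 61 of 68 intervals lie within the dotted lines in each panel.

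The second question was whether OXT changed chaperone mRNA in VPA rats. Of the 68 genes 1 had a call (1.47%), Dnaja4, against 4.66% of all probe sets. It was higher, as 1.86% of all probe sets were, and no chaperone gene was lower, against 2.81%. No probe set of the array passed at an adjusted p under 0.05. The median difference over the 68 genes was 0.01, against 0.02 over all genes with a symbol of their own. OXT-treated VPA rats against control gave 3 members (4.41%, against 7.38% of all probe sets), with Hspa4l higher (1.47%, against 3.87%) and Dnajb5 and Dnajb13 lower (2.94%, against 3.51%). Both VPA groups against control gave 6 (8.82%, against 9.31%), with Hspa4l higher (1.47%, against 4.97%) and Dnaja4, Dnajb5, Dnajb13, Dnajc4 and Dnajc14 lower (7.35%, against 4.34%). In that comparison 0.00657% of all probe sets, and no chaperone gene, had an adjusted p under 0.05. The moderated F over the 3 groups gave 3 (4.41%, against 7.54%), which were Hspa4l, Dnajb13 and Dnaja4.

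Genes whose groups did not overlap were counted as well. Between vehicle-treated VPA rats and control, 7 chaperone genes did not overlap (10.3%), against 13.6% of all probe sets. Between OXT-treated VPA rats and control it was 10 (14.7%) against 12%, between the VPA groups 2 (2.94%) against 6.33%, and between all 6 VPA rats and control 5 (7.35%) against 5.93%. Dnajc18, which had no call, was among these 5, with values of 8.85 to 8.92 in control rats and 8.94 to 9.06 in the VPA rats.

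The 95% intervals give the precision of these differences on the array's log2 scale. At low signal that scale is compressed toward 0, so that the intervals of dim genes do not bound a change in mRNA. Among the 48 genes with a mean over 6.6, the interval lay within 1.5-fold in both directions for 43 between vehicle-treated VPA rats and control, for 47 between the VPA groups, and for 45 between OXT-treated VPA rats, or both VPA groups, and control. Over all members it lay within that range for 61 of 68 genes between vehicle-treated VPA rats and control, for 61 between the VPA groups, for 63 between OXT-treated VPA rats and control, and for 64 between both VPA groups and control. The genes whose interval reached 1.5-fold between vehicle-treated VPA rats and control were Dnajb2, Dnajb5, Dnajb12, Dnajb13, Dnajc17, Hspb2 and Hspb8.

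The heat-inducible genes are those that Hsf1 switches on when proteins unfold. Hsf1 binds as a trimer to heat shock elements, which are repeats of the unit GAA in alternating orientation. A promoter was given for 55 of the 68 genes by RefSeq (assembly GRCr8), from 250 bases before to 50 bases after the start of the gene. An element of 3 units was searched as GAA, any 2 bases, TTC, any 2 bases, GAA, on both strands. It was found in 5 of the 55 promoters (9.09%), against 0.798% of 33469 promoters. A pair of units (GAANNTTC or TTCNNGAA, both contained in the element of 3 units, both strands) was found in 15 (27.3%), against 15.9%. A match is a description of the letters and not proof of binding. The 5 genes with the longer element were Dnaja1, Hspa8, Hspd1, Hspe1 and Hsph1, and their elements are shown because these are the members whose promoters hold the sequence that the heat shock factor reads. Capitals mark the units.
Hsph1, chr12:10427317-10427359, plus strand: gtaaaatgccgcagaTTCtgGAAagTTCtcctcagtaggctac
Hspa8 upstream element, chr8:50080286-50080328, plus strand: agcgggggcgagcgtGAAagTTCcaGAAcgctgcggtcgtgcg
Hspa8 near the start, chr8:50080444-50080486, plus strand: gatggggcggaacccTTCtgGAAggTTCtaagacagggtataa
Dnaja1, chr5:60638408-60638430, plus strand: gggcgGAActTTCcaGAAcgctc
Hspe1, chr9:64084247-64084294, plus strand: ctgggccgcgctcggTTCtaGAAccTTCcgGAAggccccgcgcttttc
Hspd1, chr9:64084247-64084287, minus strand: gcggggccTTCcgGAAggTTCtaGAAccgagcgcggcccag
The elements of Hspe1 and Hspd1 are a single stretch of DNA read on opposite strands, since both genes start from a shared promoter and run in opposite directions.

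None of these 5 genes passed the test in any comparison with its brightest probe set, while a dimmer probe set of Hspd1 did (given below). With the brightest, their log2 differences from control lay between -0.08 and 0.07 with vehicle and between -0.06 and 0.18 with OXT. Of the 8 genes that did pass, none has an element of 3 units, and Hspa4l alone has a pair, which lies after the start of the gene (TTCctGAA in the line below).
Hspa4l, chr2:125668379-125668395, plus strand: tatagTTCctGAAatgt

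Of 13 genes listed as heat-inducible, 10 were measured, without Hspa1a, Hspa1b and Hsp90aa1. Of the 10, 9 did not pass in any comparison with their brightest probe set. The mean log2 of the 10 was 9.25 to 9.27 in control rats, 9.25 to 9.30 in vehicle-treated VPA rats and 9.24 to 9.35 in OXT-treated VPA rats. Hspa4l was the only gene of the list that passed with its brightest probe set. Dnajb1, the main heat-induced partner of Hsp70 in the cytosol, lay between 7.41 and 7.63, and Dnaja1 between 10.50 and 10.74. Dnajb4 lay between 8.62 and 8.91. Hspb1 (Hsp25), which is induced in stressed neurons and glia, was at or under 5.84 on all arrays and so below the level of 6.6.

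**Figure D3:**
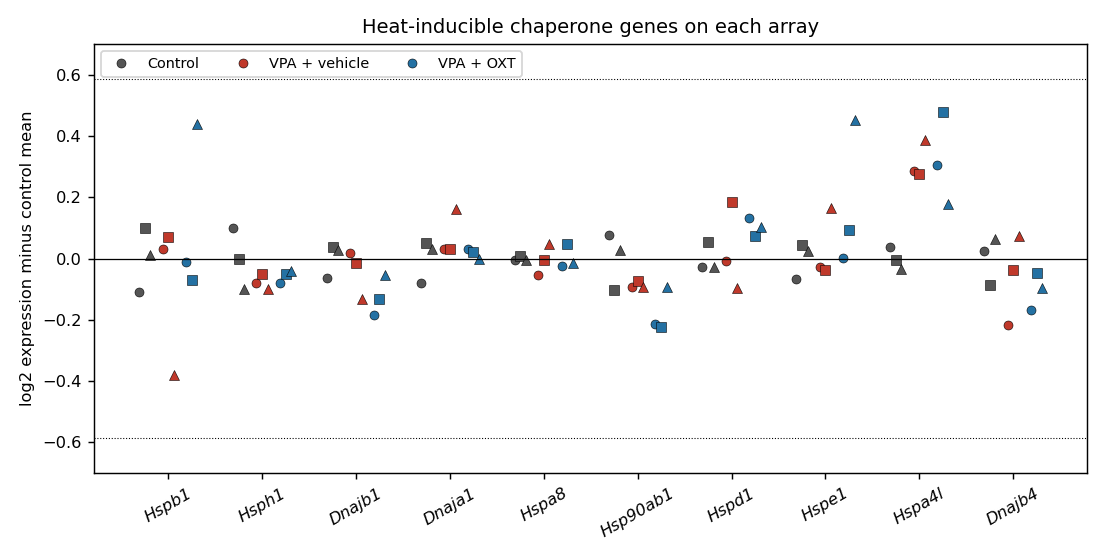
Log2 expression minus the mean of the 3 control rats (y axis) for the 10 measured heat-inducible genes (x axis), with 1 point per rat (circle, square and triangle for replicates 1, 2 and 3), and dotted lines at 1.5-fold. No rat reaches 1.5-fold for any of these genes, and the VPA rats lie above the control rats without overlap for Hspa4l.

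Hsp90ab1, the constitutive Hsp90 of the cytosol, had log2 values of 10.59, 10.41 and 10.54 in control rats, 10.42, 10.44 and 10.42 in vehicle-treated VPA rats, and 10.30, 10.29 and 10.42 in OXT-treated VPA rats. The difference of -0.18 between OXT-treated VPA rats and control did not pass (95% interval from -0.36 to 0.00). Hspe1, the lid of the mitochondrial folding chamber, reached 9.56 in replicate 3 of the OXT-treated VPA group and lay between 9.04 and 9.27 on all other arrays. Hspd1, the chamber itself, gave different results with its 2 probe sets. The brighter one, which stands for the gene, lay at 8.47 to 8.55 in control rats, 8.40 to 8.68 with vehicle and 8.57 to 8.63 with OXT, and the difference with vehicle was 0.03. The dimmer one read 7.47, 7.68 and 7.56 in control rats, 7.84, 7.81 and 7.79 with vehicle and 7.75, 7.73 and 7.69 with OXT, and the difference with vehicle was 0.24 (SE 0.08, limma adjusted p = 0.397), an unadjusted call. For both VPA groups against control it was 0.20 (SE 0.07, limma adjusted p = 0.396), also an unadjusted call, as was the moderated F. With this probe set all VPA rats lay above all control rats. Dnajc30, a mitochondrial DnaJ protein, also differed between its probe sets, with -0.15 (SE 0.15, no call) for the one used and -0.20 (SE 0.07, a call) for a dimmer one.

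The factors themselves did not pass. Hsf1 had log2 values of 7.13, 7.19 and 7.14 in control rats, 7.15, 7.21 and 6.76 in vehicle-treated VPA rats, and 7.06, 7.12 and 6.79 in OXT-treated VPA rats, with the 2 lowest values in replicate 3 of each VPA group. Its difference from control was -0.11 with vehicle, with a 95% interval from -0.42 to 0.19. Hsf2, a factor known from development and from proteasome inhibition, differed by 0.04, with an interval from -0.28 to 0.37. Activity of Hsf1 is set after translation, by trimer formation and phosphorylation, and mRNA arrays do not measure it.

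Chaperones of the ER answer to another signal, the unfolded protein response, which acts through the ER stress element, written as CCAAT, any 9 bases, CCACG. This element was searched on both strands and found in 3 of the 55 promoters (5.45%), against 0.0657% of all promoters. The 3 genes are Hspa5 (BiP), the Hsp70 of the ER, Hsp90b1 (Grp94), its Hsp90, and Dnajc3 (p58IPK), a DnaJ partner of BiP. Their elements are shown with both ends in capitals, and the second one of Hsp90b1 lies on the opposite strand.
Hspa5, chr3:38452958-38453006, plus strand: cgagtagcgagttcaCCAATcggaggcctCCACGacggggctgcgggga
Hsp90b1 upstream element, chr7:23012436-23012484, minus strand: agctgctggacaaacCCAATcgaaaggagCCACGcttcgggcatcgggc
Hsp90b1 near the start, chr7:23012332-23012380, minus strand: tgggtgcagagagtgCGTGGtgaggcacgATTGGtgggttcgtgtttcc
Dnajc3, chr15:102432519-102432567, plus strand: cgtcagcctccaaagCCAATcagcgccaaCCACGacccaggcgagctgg

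None of these 3 genes passed the test, and their differences from control lay between -0.06 and 0.03 with vehicle and between -0.04 and 0.06 with OXT. Hspa5 had log2 values of 10.67, 10.53 and 10.42 in control rats, 10.54, 10.49 and 10.40 in vehicle-treated VPA rats, and 10.68, 10.61 and 10.52 in OXT-treated VPA rats, and the 3 groups overlapped. Of 9 ER chaperones among the listed genes 8 were measured and none passed in any comparison, with a mean log2 of 8.52 to 8.65 on all arrays. Dnajb9 (ERdj4) was at 7.76 to 8.08 in control rats and 8.05 to 8.09 in the VPA rats.

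Of 18 other genes of the ER stress response, all measured, 1 passed with vehicle, in the lower direction, as 3.98% of all probe sets did. It was also the only one that differed between the VPA groups, higher with OXT, as 1.86% of all probe sets were. That gene, Sil1, encodes a nucleotide exchange factor of BiP, and its loss in humans causes Marinesco-Sjogren syndrome with ataxia. Its log2 values were 7.01, 6.99 and 6.95 in control rats, 6.58, 6.61 and 6.68 in vehicle-treated VPA rats, and 6.95, 6.86 and 6.85 in OXT-treated VPA rats. The vehicle-treated VPA rats lay below all others. The log2 difference was -0.36 with vehicle (SE 0.07, limma adjusted p = 0.163), and OXT-treated VPA rats were higher than vehicle-treated ones by 0.26 (SE 0.07, limma adjusted p = 1). Sil1 did not pass after adjustment and was not run under the alternatives.

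The mitochondrial members did not pass with their brightest probe sets, while dimmer ones of Hspd1 and Dnajc30 did, as given above. The DnaJ proteins of synaptic vesicles did not pass. Of 10 listed mitochondrial members 8 were measured, with a mean log2 of 8.17 to 8.31 on all arrays. Hspa9 (mortalin), the Hsp70 that pulls proteins into the matrix, lay between 10.17 and 10.41. Of 8 other mitochondrial chaperones and proteases, Grpel2, a nucleotide exchange factor of mortalin, was lower with OXT than in control, with a difference of -0.21, and the other 7 did not pass. Dnajc5 and Dnajc6 had differences between -0.03 and 0.05 in the 3 pairs of groups. The 8 subunits of the CCT chaperonin, which folds actin and tubulin, gave no call in any comparison.

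Of 25 listed co-chaperones and partners 21 were measured, and 3 passed in some comparison. Against control, 1 was lower with vehicle and 2 with OXT, while 3.98% and 3.51% of all probe sets were. For both VPA groups 1 was higher, against 4.97% of all probe sets, and 1 was lower, against 4.34%. Cryab, the small heat shock protein αB-crystallin, which is named outside the Hspb series and is abundant in oligodendrocytes and astrocytes, had log2 values of 9.09, 9.09 and 9.26 in control rats, 8.97, 8.70 and 8.07 in vehicle-treated VPA rats, and 8.64, 8.62 and 8.55 in OXT-treated VPA rats. All 6 VPA rats lay below the control rats, by -0.57 (SE 0.20) with vehicle and -0.54 (SE 0.20) with OXT. Mean log2 of 6 oligodendrocyte markers was 10.42 to 10.91 in control rats, 10.22, 10.36 and 9.44 with vehicle and 10.33, 10.06 and 9.61 with OXT, and the rat with the least Cryab also had the least of these markers. The part of oligodendrocytes in this difference was not tested. Fkbp5, an Hsp90 partner that is induced by glucocorticoids, was lower with OXT than in control, with a difference of -0.35 (limma adjusted p = 0.676), and Bag1, a nucleotide exchange factor of Hsp70, passed only as the mean of both VPA groups against control, higher by 0.20 (limma adjusted p = 0.516).

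Small heat shock proteins of the Hspb series gave no call. Only Hspb6 and Hspb8 had a mean over 6.6. Hspb8, which works with Bag3 in selective autophagy, had log2 values of 7.0, 6.83 and 6.85 in control rats, 6.70, 6.77 and 6.27 in vehicle-treated VPA rats, and 7.31, 6.54 and 6.5 in OXT-treated VPA rats. The vehicle-treated VPA rats lay below all control rats, but the difference of -0.31 did not pass (95% interval from -0.81 to 0.19). Replicate 1 of the OXT-treated VPA group, with the highest Hspb8, also had the highest mean of choroid plexus markers, 8.21, and the part of these cells was not tested.

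**Figure D4:**
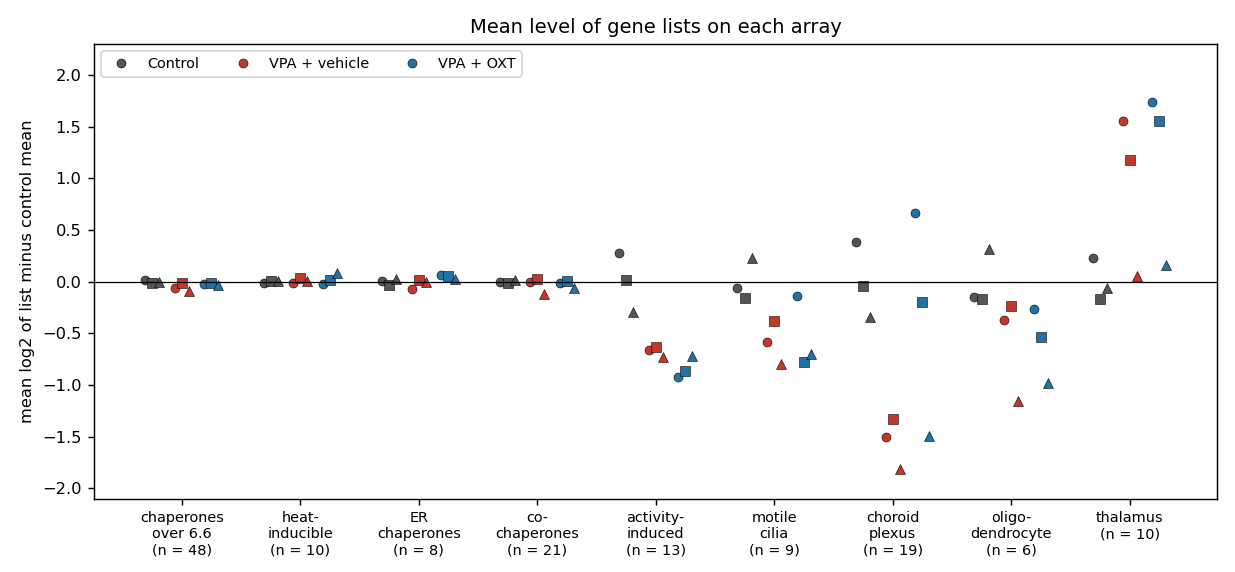
Mean log2 of gene lists on each array minus the mean of the 3 control rats (y axis), with 1 point per rat (circle, square and triangle for replicates 1, 2 and 3) and the number of measured genes under each list (x axis). The 48 chaperone genes over 6.6 and the 10 heat-inducible genes lie close to 0 on all arrays, while the activity-induced genes and the markers of other tissues spread over more than 1 log2 unit.

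The mean level of the 10 measured heat-inducible genes was steady, while other lists moved. Hspa1a, Hspa1b and Hsp90aa1 are not among the 10, so this mean leaves out the most strongly heat-induced cytosolic genes. It also averages over Hspa4l, which was higher in both VPA groups. Of 13 activity-induced genes, such as Fos and Nr4a1, 10 were lower with vehicle and 12 with OXT than in control. Among all probe sets, 3.98% were lower with vehicle and 3.51% with OXT. Only 6 of the 13 had a mean over 6.6. Mean log2 of the 13 was 7.17 to 7.75 in control rats, 6.73 to 6.83 with vehicle and 6.54 to 6.75 with OXT. Of 10 measured genes of temperature and the clock, Dbp, Nr1d1 and Ciart were higher in both VPA groups. Of all probe sets, 5% were higher with vehicle and 3.87% with OXT. Per1 was lower with OXT than in control, with a difference of -0.41, as 3.51% of all probe sets were. These are unadjusted calls, and no probe set had an adjusted p under 0.05 in either comparison. Cirbp and Rbm3, which rise when tissue cools, did not pass. Rbm3 had values of 8.10 to 8.30 in control rats, 8.05 to 8.06 with vehicle and 8.05 to 8.42 with OXT.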

How the data were processed

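Rat Gene 2.0 ST arrays were analyzed by the authors with Transcriptome Analysis Console, and the submitters' processing notes name Affymetrix Expression Console. The log2 values deposited by the authors (1 value per probe set and array, rounded to 2 decimals, from 0.9 to 13.77) were used as they stand. The summarization method and the genome build are not given in the sources used here, and the number of arrays limits the precision. Such log2 values are compressed toward 0 at low signal, so levels were compared only within a probe set.

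All 30429 probe sets of the 9 arrays entered a single limma model of the 3 groups (limma 3.58.1 in R 4.3.3), unfiltered, with variances moderated by empirical Bayes (2.72 prior degrees of freedom). Pairs of groups, the mean of both VPA groups against control and the moderated F were tested, Benjamini-Hochberg adjustment ran over all probe sets, and a call is an unadjusted p under 0.05 in the comparison named. The study's own criteria, a p under 0.05 over the 3 groups together with more than 1.5-fold and a level over 6.6, were counted beside it. An exact permutation test of 3 against 3 arrays cannot go below p = 0.1 and was not used.

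Probe sets with 1 gene symbol (18511) stood for genes, the brightest for each. Probe sets with several symbols (575) or none (11343) entered the fit only. All 68 members matched RefSeq by gene ID. The genes named are those with a call, the heat-inducible list, Hsf1 and Hsf2, and up to 3 or 4 per other list with the smallest F p; others were chosen after their values were seen. These are Hspa8's neighbors in spread, the widest genes, Dnajc18, the second probe sets, Hspb6, Hspb8 and Rbm3. The members and lists were chosen with earlier results of these data known. The alternatives tried were array weights, quantile normalization, centring on the median, other moderation, a filter on level, 1 probe set per gene, second probe sets, only the arrays compared, the replicate number as a block, choroid plexus level as a covariate, stricter criteria and leaving out arrays.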

Additional observations from a re-analysis of the deposited data

How the results depend on the processing

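Over 18 calls of single genes and up to 21 alternatives each, 355 values were computed, of which 265 passed at an unadjusted p under 0.05, 90 did not and 0 changed direction. Hspa4l (3 comparisons), Dnajb13 with OXT and over both VPA groups, and Dnaja4 with vehicle passed in all of theirs. With the choroid plexus level as a covariate, 10 of the 18 calls were lost, and the members called were 5 with vehicle against control (from 8), 3 between the VPA groups (from 1) and 4 for both VPA groups (from 6), or 7.35%, 4.41% and 5.88% of the 68 against 8.97%, 6.87% and 9.45% of all probe sets. Leaving out single arrays gave 2 to 8 members with vehicle (2 without control replicate 1), 0 to 2 between the VPA groups, 2 to 5 with OXT against control, 2 to 7 for both VPA groups and 1 to 6 for the F, while the share of all probe sets called was 7.13% to 10.4%, 4.10% to 5.88%, 5.62% to 9.0%, 6.93% to 10.4% and 5.88% to 8.39% in turn. Between the VPA groups it was 0 without control replicate 2, and 2 without control replicate 3, vehicle-treated VPA replicate 1 or 2, or OXT-treated VPA replicate 3. With OXT against control it was 5 without control replicate 3 or vehicle-treated VPA replicate 3, for both VPA groups 2 without control replicate 1, and for the F 1, 6 and 5 without control replicate 1, control replicate 3 and vehicle-treated VPA replicate 2. Without replicate 3 of both VPA groups, chosen after seeing the data, they were 4, 2, 8, 7 and 6, against 9.33%, 5.45%, 10.9%, 11.6% and 9.92% of all probe sets. Other counts that moved by more than 1.5 times were 8 (array weights, against 11.3% of all probe sets), 5 (trend and robust moderation, 7.72%) and 5 of 48 (a mean over 6.6, 12.7%) with OXT against control, from 3, then 6 (trend and robust moderation, 7.92%) and 6 of 48 (a mean over 6.6, 12.4%) for the F, from 3, and 3 between the VPA groups without moderation (3.80%). At an unadjusted p under 0.01 the counts were 1, 0, 2, 2 and 0, against 2.69%, 0.884%, 2.18%, 2.94% and 2.13% of all probe sets, and with a 1.5-fold difference 0 throughout, against 1.71%, 1.04%, 1.4%, 1.21% and 2.21%. Replicate numbers did not pair the rats (correlations of same-numbered deviations from -0.21 to 0.10), and with the replicate number as a block the counts were 7, 0, 3, 4 and 3, against 8.34%, 4.45%, 6.89%, 8.52% and 7.05%. Genes outside the 68 were not run under the alternatives, and the causes of these shifts were not tested.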
